A study of Mus musculus with 4 samples.

Results

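The 10 genes described here are Trp53, which encodes the tumour suppressor p53, the p53-linked genes Mdm2, Cdkn1a, Ccng1, Gadd45a and Phlda3, and the inhibitors of cyclin-dependent kinases (CDKs) Cdkn1b, Cdkn2a, Cdkn2c and Cdkn2d. They were chosen by symbol, as a list of genes with these known roles, out of 47069 gene identifiers in the deposited files. All 10 symbols matched 1 identifier each, and all 10 averaged 1 FPKM or more across the libraries, as did 12255 genes in all. FPKM is the number of fragments per kilobase of transcript, scaled to the total counted. RNA sequencing was done on HT22 cells, an immortalised hippocampal cell line labelled as of C57BL/6 mouse origin. In the first group the cells had received a control adenovirus and stayed in normal culture. In the second they had received an adenovirus labelled as a knockdown of the long noncoding RNA AK046375 and also stayed in normal culture. The other 2 groups had received the control virus or the knockdown-labelled virus and were then held for 6 h in oxygen and glucose deprivation (OGD), with glucose-free medium and nitrogen in place of oxygen. Each group had 1 library, so there was no spread between replicates, no test between conditions could be made, and every difference given here is between single libraries. The title and design of the series speak of lentiviral overexpression of the same RNA, whose level was not analysed here, so "labelled knockdown" names a library by its label.

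p53 is a transcription factor that is stabilised by DNA damage and other stresses and turns on genes that halt the cell cycle, repair DNA or start cell death. Its target Mdm2 is a ubiquitin ligase that returns p53 to low levels, and ARF, 1 product of Cdkn2a, blocks Mdm2. CDK inhibitors of the CIP/KIP family (p21 from Cdkn1a, p27 from Cdkn1b) bind cyclin and CDK complexes, and those of the INK4 family (p16 from Cdkn2a, p18 from Cdkn2c, p19 from Cdkn2d) bind CDK4 and CDK6, which keeps the retinoblastoma protein RB active. The large T antigen used to immortalise HT22 binds both p53 and RB, which limits the line as a model of either pathway. RNA levels do not show p53 protein or its activity.

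The regions just before the starts of these genes show how differently the p53 recognition pattern is spread among them. In 32851 RefSeq promoter windows, each from 250 bases before to 50 after a start, the p53 half-site was found without a mismatch in 2745 (8.36%). Of 13 windows of the 10 genes, 6 held it, in 6 genes. A pair of adjacent half-sites with at most 1 mismatch was present in 22 of all windows (0.067%), and 2 of these belonged to Ccng1 and Cdkn1a. Both strands were searched, and a pair contains half-sites that are also counted singly. The windows of Ccng1 (chr11:40755312-40755536, minus strand) and Cdkn1a (chr17:29090729-29090975, plus strand) are shown for their pairs, and that of Mdm2 (chr10:117710759-117711008, minus strand) for its single half-site. They are RefSeq sequence of GRCm38.p6, limited to bases outside annotated exons, written 5′ to 3′ with the p53 patterns in capitals. Distances are counted from RefSeq starts. Where annotated exons begin before such a start, the printed sequence ends short of it.
Ccng1: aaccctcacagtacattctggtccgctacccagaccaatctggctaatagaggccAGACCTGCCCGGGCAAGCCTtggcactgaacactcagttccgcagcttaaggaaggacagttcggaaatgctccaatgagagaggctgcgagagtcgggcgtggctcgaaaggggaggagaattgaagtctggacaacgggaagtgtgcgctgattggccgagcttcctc
Cdkn1a: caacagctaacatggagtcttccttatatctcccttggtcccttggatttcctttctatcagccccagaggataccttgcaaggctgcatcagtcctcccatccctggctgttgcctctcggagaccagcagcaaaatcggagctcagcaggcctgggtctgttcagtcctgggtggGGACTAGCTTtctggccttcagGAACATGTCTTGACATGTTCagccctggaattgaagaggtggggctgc
Mdm2: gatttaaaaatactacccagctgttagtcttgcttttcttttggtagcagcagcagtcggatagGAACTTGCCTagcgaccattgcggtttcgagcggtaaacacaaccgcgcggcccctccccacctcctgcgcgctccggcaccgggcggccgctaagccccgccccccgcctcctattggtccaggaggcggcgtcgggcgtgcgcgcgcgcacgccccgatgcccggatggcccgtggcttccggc
The Ccng1 pair, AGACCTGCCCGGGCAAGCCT, began 195 bases before the start. The Cdkn1a pair, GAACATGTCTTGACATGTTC, began 51 bases before the upstream start of that gene and 2841 bases before its downstream start, with a further half-site, GGACTAGCTT, 73 bases before the upstream start. The Mdm2 half-site, GAACTTGCCT, began 186 bases before the start. Single half-sites were also found before Trp53 (GGACTTGCCC), Cdkn2d (GGGCTTGCCT) and Gadd45a (GGGCTAGCCC). The Gadd45a half-site began 40 bases before a RefSeq start and lies within the annotated interval of that gene. A match describes letters and not a binding site. The promoter through which p53 is known to act on Mdm2 lies inside that gene and is outside the window.

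The deposited expected counts summed to between 23327743 and 27539845 per library, of which the 10 genes took 0.135 to 0.178%. The count-weighted mean transcript length was not the same in the libraries, at 1835 nt in the control normal library, 1545 nt in the labelled-knockdown normal, 1815 nt in the control OGD and 2153 nt in the labelled-knockdown OGD library. Across genes, the log2 ratio of labelled knockdown to control had a Spearman correlation with effective length of -0.43 in normal culture and 0.57 in OGD, and that of OGD to normal -0.03 with the control and 0.47 with the knockdown-labelled virus. Of 9 neuronal marker genes 3 reached 1 FPKM in any library, and Rbfox3, Nefl, Snap25 and Gad1 had 0 counts in all 4. Their summed level, mostly Tubb3, was 43.0 and 39.6 FPKM in the control and labelled-knockdown normal libraries and 7.90 and 9.35 FPKM in the OGD libraries. Progenitor markers, mostly Vim, summed to 2529, 899.8, 4711 and 4142 FPKM in the same order, and Sox2 had 0 counts. At 1 FPKM or more in any library were 1 of 5 astrocyte, 0 of 5 oligodendrocyte, 1 of 5 microglial and 0 of 3 endothelial markers, and each of these lists summed to at most 3.74 FPKM in any library. The part of length or of these markers in the results was not tested, and in bulk RNA fewer cells of a kind and less RNA per cell cannot be told apart.

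Cdkn2a had the highest level of the 10 genes in both normal libraries and Gadd45a in both OGD libraries, while Gadd45a lay below Cdkn2d, Phlda3 and Trp53 in the labelled-knockdown normal library. Ccng1 was the lowest in 3 libraries and Mdm2 in the labelled-knockdown normal one. In the control normal library the order ran Cdkn2a, Gadd45a, Trp53, Phlda3, Cdkn2d, Cdkn2c, Cdkn1a, Cdkn1b, Mdm2, Ccng1, from 870 to 3.24 FPKM. In both OGD libraries Cdkn2a came next after Gadd45a, and Cdkn2d lay below Mdm2. Most neighbours in these orders differed beyond counting error. The exceptions were Phlda3 and Trp53 (1.02-fold apart) and Cdkn1b and Ccng1 (1.20-fold) in the labelled-knockdown normal library, and Cdkn1a and Phlda3 (1.05-fold) in the labelled-knockdown OGD library. The span between the highest and the lowest of the 4 libraries was 16.8-fold for Cdkn2d, 12.7-fold for Mdm2 and 6.30-fold for Gadd45a. It lay between 1.97-fold and 3.54-fold for Cdkn2a, Cdkn1b, Phlda3 and Ccng1, and was 1.84-fold for Cdkn1a, 1.55-fold for Cdkn2c and 1.51-fold for Trp53.

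**Figure D1:**
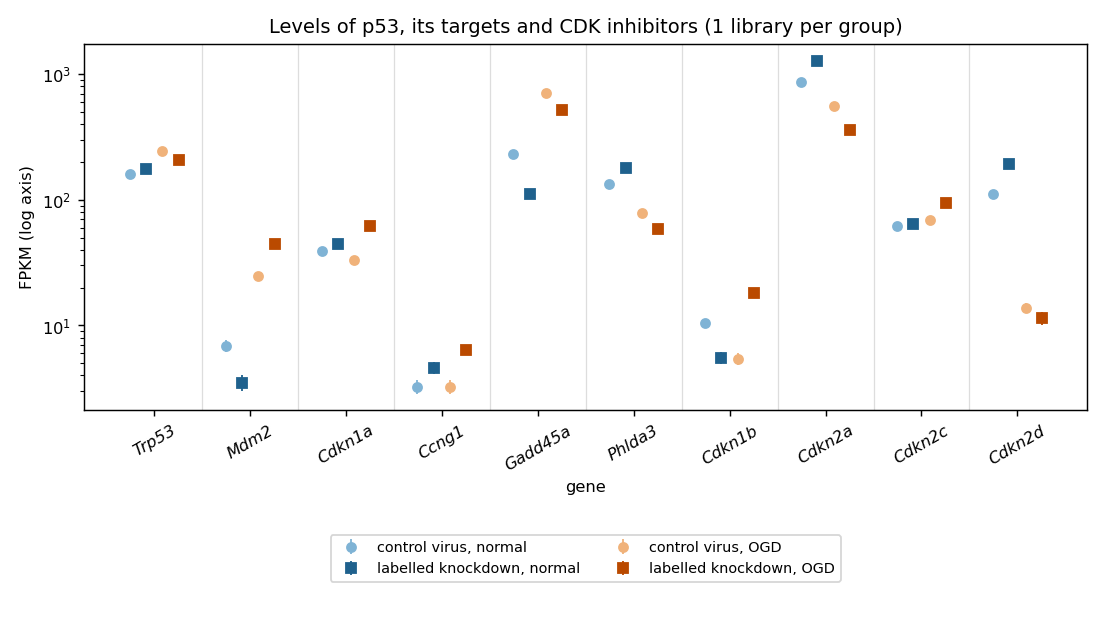
FPKM (log axis) of each of the 10 genes in the 4 libraries, 1 point per library. Bars, often smaller than the points, are exact Poisson 95% intervals for counting error only. Cdkn2d lies at 112 and 191 FPKM in normal culture and at 13.8 and 11.4 in OGD, whereas Trp53 stays between 162 and 244 FPKM.

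Trp53 (ENSMUSG00000059552, chromosome 11, 69580359 to 69591873 on the plus strand of GRCm38, like the other 9 protein-coding) was among the more abundant and least variable of the 10. It stood at 162 FPKM in the control normal library, 176 in the labelled-knockdown normal, 244 in the control OGD and 209 in the labelled-knockdown OGD library, on 6372 to 10312 counts. Both OGD libraries were thus above both normal ones. With the control virus it was 1.51-fold higher in OGD [exact conditional binomial 95% interval 1.47 to 1.56, counting error only, as for all intervals below]. With the knockdown-labelled virus the difference was 1.18-fold [1.14 to 1.22], and its direction turned under CPM scaled by TMM (-0.08 on the log2 scale) and by median of ratios. Between viruses Trp53 was 1.09-fold higher with the knockdown label in normal culture [1.05 to 1.13] and 1.17-fold lower in OGD [1.14 to 1.21], and both directions turned when FPKM was rescaled to equal library sums (-0.20 and 0.07 on the log2 scale). The genes whose profile over the 4 libraries was most like that of Trp53, among 7613, were Scamp3, Phykpl and Tpst2, with root mean square distances of 0.012 to 0.032 on the log2 scale. The p53 relatives Trp63 and Trp73 were at the floor, with at most 3 counts in any library.

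Mdm2 (ENSMUSG00000020184, chromosome 10, 117688875 to 117710758, minus strand) had the second widest span. It was at 6.85 FPKM in the control normal library, 3.51 in the labelled-knockdown normal, 24.9 in the control OGD and 44.7 in the labelled-knockdown OGD library, on 345, 183, 1534 and 1873 counts. It was higher in OGD than in normal culture under both viruses, 3.63-fold [3.23 to 4.09] with the control virus and 12.7-fold [10.9 to 14.9] with the knockdown-labelled one. These ratios lay at the 96.0 and 98.9 percentiles of all genes in their comparisons. The effective length assigned to Mdm2 was 2233 nt in the labelled-knockdown normal and 1795 nt in the labelled-knockdown OGD library, which enters the FPKM. In CPM, which ignores length, Mdm2 was at 7.84 and 80.3 in these libraries, and its log2 ratio was 3.20 in place of 3.34. Both log2 ratios were taken after adding 1 to each value, so the gap between them does not measure the effect of length. Between viruses Mdm2 was 1.95-fold lower with the knockdown label in normal culture [1.63 to 2.35] and 1.80-fold higher in OGD [1.68 to 1.93]. The first, -0.80 on the log2 scale, was -0.33 without the length trend, and the second, 0.82, was 0.27 with TMM and 0.22 with median of ratios. The nearest profiles were those of Arl14ep, Atp6v1h and Rgs2, at distances of 0.047 to 0.067.

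Other genes that control p53 gave a wider view of this layer. Of 22 listed, 19 passed the filter, including Trp53 and Mdm2. With the control virus 4 were at least 2-fold higher in OGD, Mdm2, the nucleolar ARF-binding gene Npm1, and the ubiquitin pathway genes Usp7 and Rchy1, and 1, the checkpoint kinase gene Chek2, was lower, where 11.6% and 24.3% of all genes tested were. The list's median log2 ratio was 0.64 against -0.25 over all genes. With the knockdown-labelled virus 14 of 19 were higher and 0 lower, where 33.4% and 20.9% of all genes were, with a median of 2.14 against 0.32. Of the 14, 13 were genes other than the 10. In this comparison the log2 ratios of all genes had a Spearman correlation of 0.47 with effective length. The list counts were not repeated without the length trend. Npm1 stood at 155 and 133 FPKM in the normal libraries and at 422 and 712 in OGD, control before labelled knockdown. Usp7, which deubiquitinates p53 and Mdm2, was at 7.13 and 5.63 FPKM and then 16.6 and 29.2. Mdm4, the Mdm2-related p53 inhibitor, was at 1.97 and 1.44 and then 4.70 and 7.66 FPKM, and the damage kinase gene Atm at 0.75 and 0.26 and then 2.29 and 7.05 FPKM. Ep300, a histone acetyltransferase and p53 coactivator gene, was close to level in 3 libraries at 3.50 to 4.48 FPKM and stood at 25.5 FPKM in labelled-knockdown OGD.

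Cdkn1a (ENSMUSG00000023067, chromosome 17, 29090976 to 29100727, plus strand) encodes p21, the CDK inhibitor by which p53 halts the cell cycle. It stood at 39.2 FPKM in the control normal library, 44.8 in the labelled-knockdown normal, 33.4 in the control OGD and 61.7 in the labelled-knockdown OGD library, on 1365 to 1928 counts. The last was the highest and the control OGD library the lowest. In OGD Cdkn1a was 1.84-fold higher with the knockdown label [1.72 to 1.98], within 2-fold but past it after rescaling to equal sums (1.16 on the log2 scale). Its log2 ratio of 0.86 was 0.43 with TMM and 0.38 with median of ratios. OGD over normal culture gave 1.17-fold lower with the control virus [1.09 to 1.26]. That direction turned under TMM (0.14), under median-of-ratios scaling and after removal of the length trend (0.15). With the knockdown-labelled virus Cdkn1a was 1.38-fold higher in OGD [1.28 to 1.47]. Its log2 ratio of 0.45 ranged from 0.02 with median of ratios to 0.96 with equal sums. In normal culture it was 1.14-fold higher with the label [1.06 to 1.23], and slightly lower (-0.13) after rescaling to equal sums. An annotated gene on the opposite strand, AC167363.2, overlaps exons of Cdkn1a. Strand use in counting is not stated in the sources used here, so reads of the pair cannot be told apart. The nearest profiles to that of Cdkn1a were those of Arl6, Fbxo8 and Gnpnat1, at 0.032 to 0.055.

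Ccng1 (ENSMUSG00000020326, chromosome 11, 40748552 to 40755311, minus strand) encodes cyclin G1, a p53-induced cyclin that binds a subunit of protein phosphatase 2A. It had the lowest levels of the 10 in 3 of 4 libraries, at 3.24 FPKM in both control-virus libraries, 4.60 in the labelled-knockdown normal and 6.37 in the labelled-knockdown OGD library, on 257 to 456 counts. The knockdown-labelled libraries were thus the higher ones in both culture conditions, by 1.42-fold [1.20 to 1.69] in normal culture and 1.97-fold [1.69 to 2.29] in OGD, and that order held in all 6 alternatives. The OGD value was 0.19 on the log2 scale after removal of the length trend, in place of 0.80. With the control virus OGD and normal culture did not differ beyond counting error (1.00-fold [0.840 to 1.19]). The 1.39-fold higher level [1.19 to 1.61] in OGD with the knockdown-labelled virus turned to -0.53 on the log2 scale after removal of the length trend.

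Gadd45a (ENSMUSG00000036390, chromosome 6, 67035096 to 67037457, minus strand) encodes a small stress-induced protein of arrest and repair that p53 and other factors can induce. It was at 229 FPKM in the control normal library, 111 in the labelled-knockdown normal, 702 in the control OGD and 522 in the labelled-knockdown OGD library, on 3818, 1677, 12584 and 7621 counts. Both OGD libraries lay above both normal ones, and the labelled-knockdown library was the lower one in each condition. OGD was 3.06-fold higher with the control virus [2.95 to 3.17] and 4.69-fold higher with the knockdown-labelled one [4.44 to 4.94], at the 95.5 and 91.5 percentiles of all genes. The second, 2.22 on the log2 scale, was 2.93 without the length trend. In normal culture the labelled-knockdown library was 2.06-fold lower [1.94 to 2.18], a call that was lost under TMM (-0.76 on the log2 scale) and median-of-ratios scaling (-0.73). In OGD it was 1.34-fold lower [1.31 to 1.38]. The log2 ratio there, -0.43, ranged from -0.78 with median of ratios to -0.08 without the length trend. E230016M11Rik, which overlaps Gadd45a on the opposite strand, was at 2.80, 2.54, 11.3 and 8.82 FPKM in the same order, far below Gadd45a. Of its relatives, Gadd45b lay between 83.2 and 92.0 FPKM in all 4 libraries. Gadd45g stood at 61.6 and 51.8 FPKM in normal culture and at 159 and 77.1 in OGD.

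Phlda3 (ENSMUSG00000041801, chromosome 1, 135766119 to 135769136, plus strand) encodes a pleckstrin homology protein that p53 induces and that competes with AKT for membrane lipids. It was at 134 FPKM in the control normal library, 179 in the labelled-knockdown normal, 79.1 in the control OGD and 58.5 in the labelled-knockdown OGD library, on 1505 to 4409 counts. Unlike Mdm2 and Gadd45a, it was lower in both OGD libraries than in both normal ones. It was 1.69-fold lower with the control virus [1.61 to 1.78] and 3.06-fold lower with the knockdown-labelled one [2.89 to 3.25]. The knockdown label went with a 1.34-fold higher level in normal culture [1.28 to 1.40] and a 1.35-fold lower one in OGD [1.27 to 1.45]. Over the alternatives these log2 ratios, 0.42 and -0.43, ranged from 0.09 to 0.66 and from -0.61 to -0.13.

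The 5 p53-linked genes other than Trp53 therefore did not share a direction in OGD: Mdm2 and Gadd45a were at least 2-fold higher under both viruses, and Cdkn1a and Ccng1 were within 2-fold under both. Phlda3 was at least 2-fold lower with the knockdown-labelled virus and within 2-fold with the control virus. Further p53 targets, listed for arrest and feedback, death, or repair and metabolism, numbered 48 besides the 10 genes, and 42 passed the filter. With the control virus 4 of 42 (9.52%) were at least 2-fold higher in OGD and 16 (38.1%) lower, beside 11.6% and 24.3% of all genes tested, and their median log2 ratio was -0.71 against -0.25. Under the knockdown-labelled virus 5 (11.9%) were higher and 11 (26.2%) lower, beside 33.4% and 20.9% of all genes, with a median of -0.03 against 0.32. Between viruses the counts were 2 higher and 6 lower in normal culture, where the shares of all genes were 4.67% and 13.9%, and 2 higher and 0 lower in OGD, where they were 16.2% and 2.28%.

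The lower targets in OGD lay mostly in repair and metabolism. With the control virus 12 of 21 genes there were at least 2-fold lower and 1 higher, where 24.3% and 11.6% of all genes were. The median log2 ratio was -1.18 against -0.25 over all genes. With the knockdown-labelled virus 7 were lower and 2 higher, where 20.9% and 33.4% of all genes were, with a median of -0.24 against 0.32. Among those lower with the control virus was the lipase gene Abhd4, at 104 FPKM in normal culture and 8.24 in OGD. The adenylate kinase gene Ak1 was at 119 FPKM in normal culture and 25.0 in OGD. The sestrin genes split: Sesn2 stood at 6.36 FPKM in normal culture and 60.8 in OGD with the control virus, whereas Sesn1 was at 10.2 and 1.61 FPKM. With the knockdown-labelled virus Sesn2 was at 9.45 and 69.9 FPKM and Sesn1 at 4.33 and 3.50. Of 13 death genes, Phlda3 included, 2 were higher and 2 lower with the control virus, where 11.6% and 24.3% of all genes were. The higher ones were the BCL2 family gene Bax at 143 and 578 FPKM and the nuclease gene Aen. The lower ones were the caspase gene Casp6 at 73.9 and 7.16 FPKM and Ei24. Under the knockdown-labelled virus Bax was at 387 FPKM in normal culture and 324 in OGD, within 2-fold. Pmaip1, which encodes the BH3-only protein NOXA, had at most 1 count in any library. In arrest and feedback the polo-like kinase gene Plk3 was higher in OGD under both viruses, at 14.4 and 11.4 FPKM in normal culture and 52.9 and 53.6 in OGD, control before labelled knockdown. The antiproliferative gene Btg2 was at 22.6 FPKM in the control normal library and between 4.00 and 8.79 FPKM in the other 3.

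**Figure D2:**
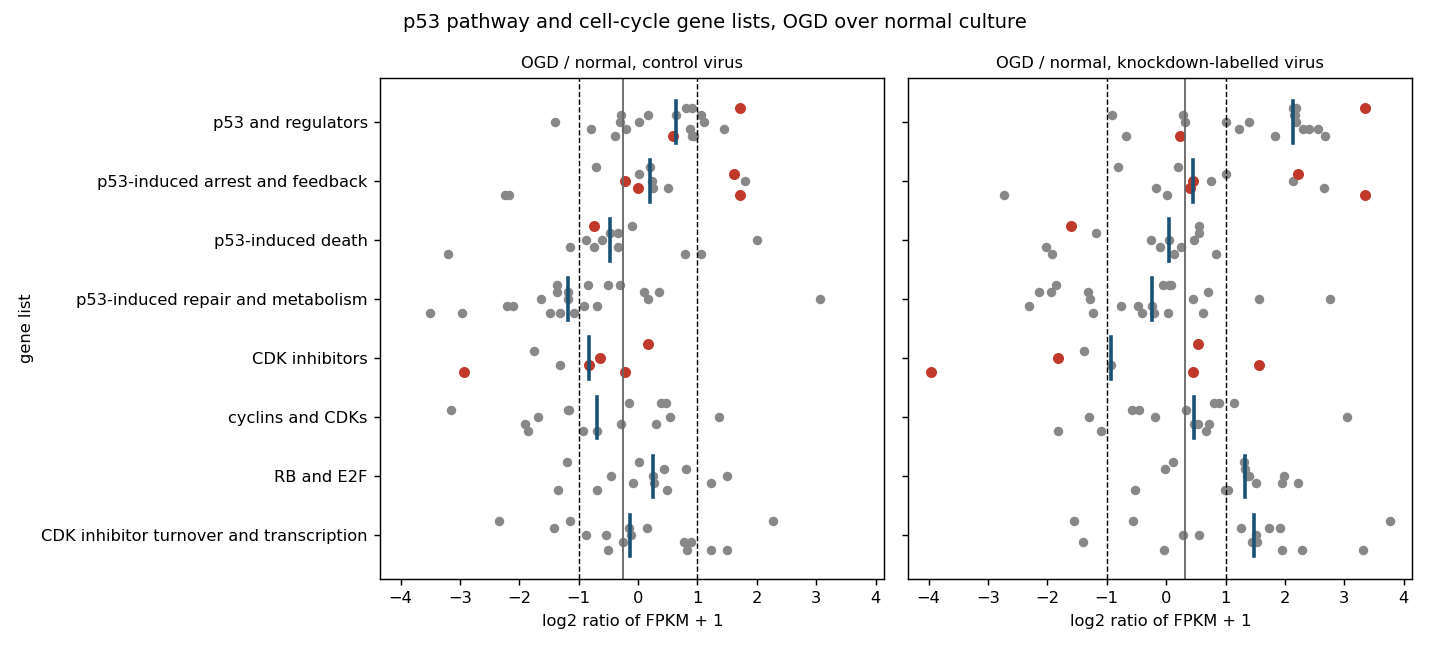
Log2 ratio of FPKM + 1, OGD over normal culture, for the genes of 8 lists that passed the filter, with the control virus (left) and the knockdown-labelled virus (right), 1 library per group. Red points are the 10 genes, grey points other list genes, short blue bars list medians, the grey line the median of all genes and dashed lines 2-fold. The repair and metabolism median lies at -1.18 on the left and the p53 and regulators median at 2.14 on the right.

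Cdkn1b (ENSMUSG00000003031, chromosome 6, 134920401 to 134925513, plus strand) encodes p27, a CIP/KIP inhibitor held high in resting cells. It was at 10.5 FPKM in the control normal library, 5.52 in the labelled-knockdown normal, 5.45 in the control OGD and 18.2 in the labelled-knockdown OGD library, on 662, 311, 350 and 1147 counts. The 2 middle values were alike, and each virus had its higher level in a different culture condition. With the control virus OGD was 1.92-fold lower [1.68 to 2.19], and with the knockdown-labelled virus 3.29-fold higher [2.90 to 3.75]. The second value was 0.83 on the log2 scale after removal of the length trend, within 2-fold. The knockdown label went with 1.89-fold lower Cdkn1b in normal culture [1.65 to 2.18] and 3.33-fold higher in OGD [2.96 to 3.77], the latter at the 95.5 percentile of all genes and past 2-fold in all 6 alternatives (1.07 to 1.87). Skp2, which encodes the F-box protein that targets p27 for degradation, was at 8.89, 3.31, 7.92 and 15.3 FPKM in the order used above. Foxo3, a transcription factor gene whose product can induce Cdkn1b, was at 9.72, 6.06, 10.9 and 22.4 FPKM. Foxo4, listed with Foxo3, ran otherwise, at 34.4, 16.5, 5.96 and 10.9 FPKM. A part of any of these genes in the Cdkn1b levels was not tested. The third CIP/KIP gene, Cdkn1c, was below the filter with 5 to 49 counts.

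Cdkn2a (ENSMUSG00000044303, chromosome 4, 89274471 to 89294653, minus strand) was the most abundant of the 10 in normal culture, ranking 199 and 192 among all genes in the 2 normal libraries. It encodes 2 proteins in different reading frames, p16 from a transcript with a downstream start (Ink4a) and ARF from one with a start 12461 bases upstream (Arf), so that the downstream start lies in the first intron of the Arf transcript. The windows before both starts are shown because they differ in the E2F word TTTCCCGC, here in capitals and found on either strand in 351 of 32851 windows (1.07%). The word lies 99 bases before the RefSeq Arf start. That start is inside the gene interval given above, so the printed window (chr4:89294654-89294869, minus strand) ends short of it. The word was not found in the window before the Ink4a start (chr4:89282193-89282442, minus strand). Both are RefSeq sequence of GRCm38.p6 outside annotated exons, 5′ to 3′.
Cdkn2a upstream start (Arf): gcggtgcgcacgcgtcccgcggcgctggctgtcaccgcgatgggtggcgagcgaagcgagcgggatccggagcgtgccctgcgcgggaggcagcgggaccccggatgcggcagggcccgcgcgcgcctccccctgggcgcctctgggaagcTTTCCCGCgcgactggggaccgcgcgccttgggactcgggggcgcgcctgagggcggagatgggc
Cdkn2a downstream start (Ink4a): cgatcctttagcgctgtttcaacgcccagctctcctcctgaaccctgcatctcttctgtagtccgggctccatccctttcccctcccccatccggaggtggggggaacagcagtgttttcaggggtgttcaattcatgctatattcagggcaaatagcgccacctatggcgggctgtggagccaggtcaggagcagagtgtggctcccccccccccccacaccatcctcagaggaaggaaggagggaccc
Cdkn2a stood at 870 FPKM in the control normal library, 1261 in the labelled-knockdown normal, 557 in the control OGD and 356 in the labelled-knockdown OGD library, on 5660 to 19933 counts. Both OGD libraries were below both normal ones. OGD was 1.56-fold lower with the control virus [1.53 to 1.60] and 3.54-fold lower with the knockdown-labelled one [3.44 to 3.65]. The latter, -1.82 on the log2 scale, was -1.13 without the length trend. The knockdown label went with a 1.45-fold higher level in normal culture [1.42 to 1.48] and a 1.56-fold lower level in OGD [1.51 to 1.61]. Nthl1, Shisa4 and Cyba had the nearest profiles, at distances of 0.036 to 0.056.

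The deposited mean transcript length of Cdkn2a allows its level to be split, since only an 895 nt Arf and an 852 nt Ink4a transcript are annotated in GENCODE M21. If those lengths apply, Arf made up 69.8% of Cdkn2a molecules in the control normal library, 69.6% in the labelled-knockdown normal, 67.9% in the control OGD and 70.3% in the labelled-knockdown OGD library. This gave 608, 878, 378 and 251 FPKM for Arf and 263, 383, 179 and 106 FPKM for Ink4a. The shares stayed within 67.9 to 70.3% while the gene's level spanned 3.54-fold. A change of 1 nt in the mean length would move the share by 2.33 percentage points, and the shares rest on the authors' assignment of reads to transcripts, for which no error is given. Of 30610 genes with 1 transcript, 26959 (88.1%) had the same length in GENCODE M21 as deposited. Of 1290 genes with 2 annotated transcripts, 1172 (90.9%) had deposited lengths within the bounds of those transcripts in all 4 libraries. Neither count checks the Cdkn2a split itself, which rests on a 43 nt difference.

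**Figure D3:**
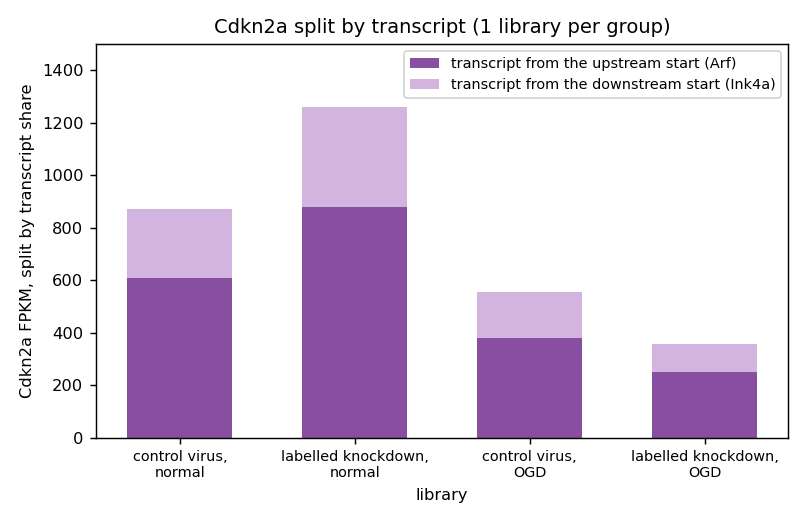
Cdkn2a FPKM in each library (bar height, axis from 0), split into the share of the upstream-start Arf transcript (dark) and the downstream-start Ink4a transcript (light), 1 library per group and no error bars. Arf takes 67.9 to 70.3% of every bar while the bars run from 356 to 1261 FPKM.

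Cdkn2c (ENSMUSG00000028551, chromosome 4, 109660876 to 109667189, minus strand) encodes p18, an INK4 inhibitor. It lay at 61.3 FPKM in the control normal library, 64.7 in the labelled-knockdown normal, 69.0 in the control OGD and 94.8 in the labelled-knockdown OGD library, on 2226 to 3281 counts. The 2 normal libraries did not differ beyond counting error (1.06-fold [0.997 to 1.12]), and the highest level was in labelled-knockdown OGD. The knockdown label went with a 1.37-fold higher level in OGD [1.30 to 1.45]. OGD was 1.13-fold higher with the control virus [1.07 to 1.19] and 1.46-fold higher with the knockdown-labelled one [1.39 to 1.55].

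Cdkn2d (ENSMUSG00000096472, chromosome 9, 21288410 to 21291407, minus strand) encodes p19, the INK4 inhibitor known to vary over the cell cycle and to be present in neurons. It stood at 112 FPKM in the control normal library, 191 in the labelled-knockdown normal, 13.8 in the control OGD and 11.4 in the labelled-knockdown OGD library, on 3120, 4760, 406 and 284 counts. The normal libraries lay far above the OGD ones. Cdkn2d was 8.12-fold lower in OGD with the control virus [7.32 to 9.02] and 16.8-fold lower with the knockdown-labelled one [14.9 to 19.0], at the 1.05 and 0.155 percentiles of all genes. Over the alternatives its log2 ratio ranged from -3.04 to -2.61 and from -4.35 to -3.46. With 1 transcript in the files its length was the same in all libraries, so these differences were in the counts. The knockdown label went with a 1.71-fold higher level in normal culture [1.63 to 1.79], past 2-fold under TMM (1.03 on the log2 scale) and median-of-ratios scaling. In OGD it was 1.21-fold lower with the label [1.04 to 1.41], and that direction turned after rescaling to equal sums (0.02). Cdkn2b, which encodes the INK4 inhibitor p15, was at 23.3 and 17.8 FPKM in normal culture and 6.19 and 6.22 in OGD, control before labelled knockdown.

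The list of CDK inhibitors held 7 genes that passed the filter. Under the control virus 3 of these, Cdkn2d, Cdkn2b and Cdkn3, were at least 2-fold lower in OGD and 0 were higher, where 24.3% and 11.6% of all genes were. Cdkn3 encodes a phosphatase that acts on CDKs and not a protein of the inhibitor families. Under the knockdown-labelled virus Cdkn2d, Cdkn2a and Cdkn2b were lower and Cdkn1b was higher, where 20.9% and 33.4% of all genes were. Among 15 cyclins and CDKs, 6 were lower and 1 higher in OGD with the control virus, with a median log2 ratio of -0.69 against -0.25 over all genes. With the other virus 3 were lower and 2 higher, and the median was 0.47 against 0.32. The shares of all genes are those just given. Cdk1, the mitotic kinase gene, was at 585 and 576 FPKM in normal culture and 161.5 and 162.1 in OGD. Cdk4, the kinase gene whose product INK4 proteins bind, was at 538 and 1141 FPKM in normal culture and 1387 and 999.9 in OGD, control before labelled knockdown. In the RB and E2F list 2 of 13 were higher and 2 lower in OGD with the control virus, where 11.6% and 24.3% of all genes were. With the knockdown-labelled virus 9 were higher and 0 lower (median 1.34 against 0.32), where 33.4% of all genes were higher and 20.9% lower. In that comparison the log2 ratios of all genes had a Spearman correlation of 0.47 with effective length, and the list counts were not repeated without the length trend. Dtl, which encodes the substrate receptor that targets p21 for degradation, was at 3.50 and 1.81 FPKM in normal culture and 20.8 and 37.1 in OGD. Bmi1, a repressor of Cdkn2a, was at 1.53 and 1.52 and then 4.93 and 24.0 FPKM. Tbx2, listed with Bmi1, went the other way, at 1.88 and 3.08 and then 0.30 and 0.39 FPKM. A part of either gene in the Cdkn2a levels was not tested.

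Counted over the 10 genes, the virus comparisons gave few differences of 2-fold or more. In normal culture 0 were higher with the knockdown label and 1, Gadd45a, was lower, where 4.67% and 13.9% of all genes tested were. In OGD 1, Cdkn1b, was higher and 0 were lower, where 16.2% and 2.28% of all genes were. These counts are near the background. The median log2 ratio of the 10 genes was 0.16 in normal culture against -0.27 over all genes, and 0.11 against 0.26 in OGD. The authors' deposited tables list rows with a p-value below 0.05, which were 1342 in normal culture and 219 in OGD. Both held 0 of the 10 genes. The share of all 12255 genes tested here that these rows cover was not counted, and they too rest on 1 library per group. The 0 is therefore not read as a result about these genes. Of related genes, the authors' deposited table for normal culture listed Bax at a log2 fold change of 1.69 and Plk2, a polo-like kinase and p53 target gene, at -1.81, and that for OGD listed Gadd45g at -1.32.

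OGD over normal culture gave 2 of 10 higher (Mdm2 and Gadd45a) and 1 lower (Cdkn2d) with the control virus, where 11.6% and 24.3% of all genes were. With the knockdown-labelled virus 3 were higher (Mdm2, Gadd45a and Cdkn1b) and 3 lower (Cdkn2d, Cdkn2a and Phlda3), where 33.4% and 20.9% of all genes were. As counts these too are near the background. The medians of the 10 genes were -0.11 against -0.25 over all genes, and 0.42 against 0.32. The 2 comparisons of culture share no library, and Mdm2, Gadd45a and Cdkn2d were past 2-fold in both. The share of all genes past 2-fold in both was not counted, so this overlap is not read as a result about these genes.

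**Figure D4:**
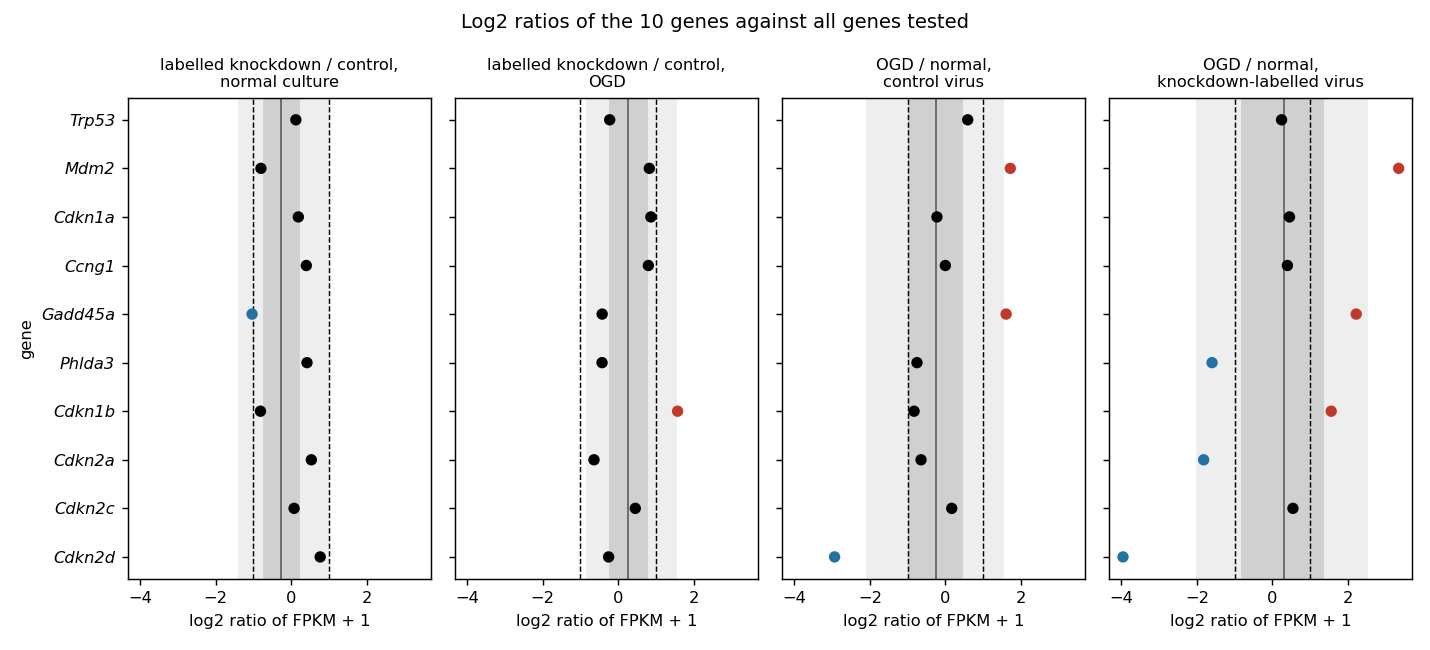
Log2 ratio of FPKM + 1 of each of the 10 genes in the 4 comparisons, 1 library per group. The dark band is the interquartile range of all 12255 genes, the light band their 5th to 95th percentile, the grey line their median and dashed lines 2-fold. Red and blue points are genes at least 2-fold higher or lower. Cdkn2d at -2.93 and -3.96 and Mdm2 at 1.72 and 3.34 lie outside the light band in both OGD comparisons.

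The log2 ratios of labelled knockdown to control were also set against each other, as OGD minus normal. Across all genes the median of this difference was 0.61, 37.4% were at 1 or more and 12.7% at -1 or less. Of the 10 genes 2 were at 1 or more, Cdkn1b at 2.38 and Mdm2 at 1.62, and 2 at -1 or less, Cdkn2a at -1.18 and Cdkn2d at -1.02. Of these, Cdkn1b was past 1 in all 6 alternatives (1.37 to 2.95). Mdm2 was below 1 with TMM (0.72), with median of ratios (0.65) and without the length trend (0.77). Cdkn2a lay at -0.55 with equal sums and -0.56 without the length trend, and Cdkn2d at -0.42 and -0.96. Cdkn1b lay at the 94.2 percentile and Cdkn2a at the 9.92 percentile of all genes. Phlda3 was at -0.85, Trp53 at -0.35, Cdkn1a at 0.67, Gadd45a at 0.61, Ccng1 at 0.40 and Cdkn2c at 0.37, and all of these but Phlda3 turned sign in at least 1 alternative. With single libraries none of these differences was tested.

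**Figure D5:**
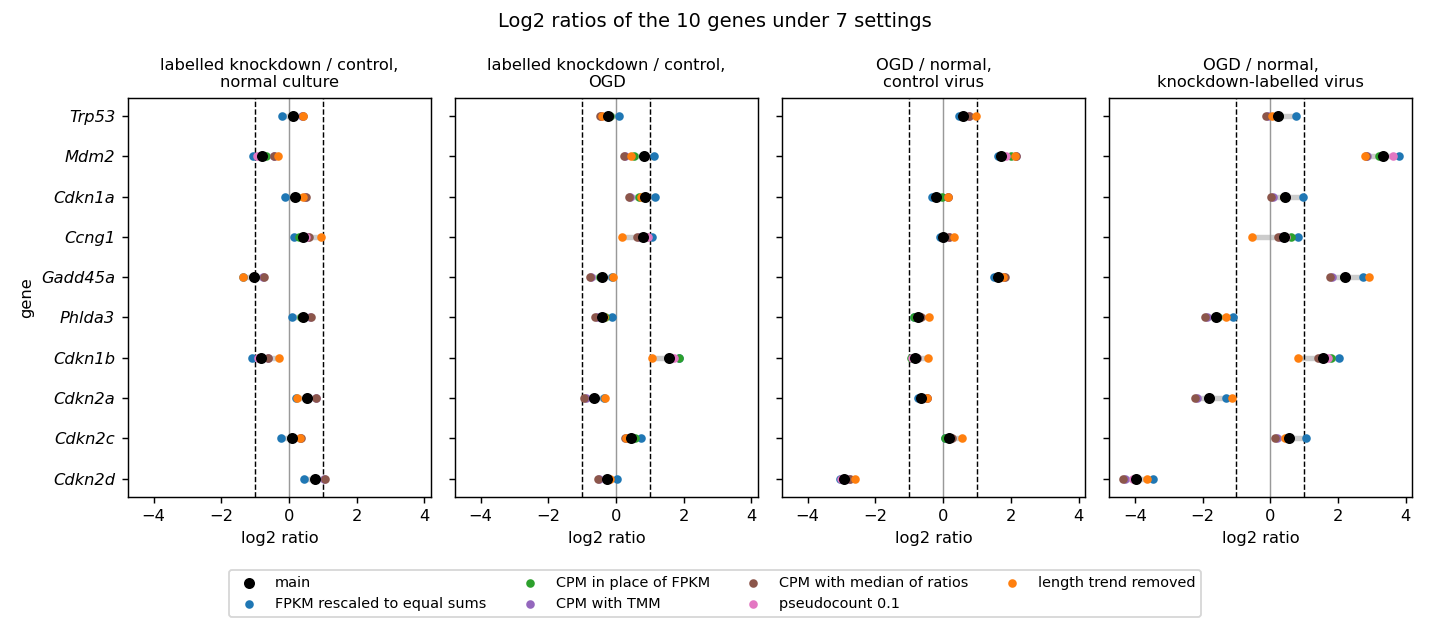
Log2 ratios of the 10 genes in the 4 comparisons as reported (black) and under 6 alternatives (coloured), 1 library per group, with grey bars for the range and dashed lines at 2-fold. Cdkn2d in OGD stays at or below -2.61 with the control virus, whereas Trp53 crosses 0 in 3 of the 4 panels.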

How the data were processed

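Per the labels' protocols, total RNA was fragmented to about 200 bp, made into cDNA with dUTP marking 1 strand and amplified by 12 PCR cycles. TopHat2 and mm10 are named, with no version, per the submitters' processing notes, while nothing states the counting tool, annotation or strand setting (not given in the sources used here). Each library file covers 47069 genes with the authors' expected count, FPKM, TPM, length and effective length, per the file headers. All expected counts in the deposited files were whole numbers. The deposited FPKM equalled the count divided by effective length and library total, within 0.1% plus rounding, for 99.97% of values. Ratios did not use the deposited TPM. The authors' deposited tables of each virus comparison give a log2 fold change and a p-value per gene, and 4 further columns of values per library in them were not used.

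Gene symbols came from GENCODE M21. Ratios were log2 of FPKM + 1 between single libraries over the 12255 genes averaging 1 FPKM or more, which understates folds of genes near 1 FPKM, and a gene was counted at 2-fold or more. Folds in the text are FPKM folds with exact conditional binomial 95% intervals, and levels carry exact Poisson intervals. Both cover counting error only, since PCR reads without molecular identifiers are not independent molecules. A count of 3 at 1 kb corresponded to 0.109 to 0.129 FPKM. With 1 library per group there was no test and no p-value of conditions. The alternatives were FPKM rescaled to equal sums, CPM unscaled, with TMM (edgeR 4.0.16) or with median of ratios, a pseudocount of 0.1, a filter of 5 FPKM or none, and removal of the length trend (lowess, span 30%, statsmodels 0.14.6). The ratio steps were tested on simulated data, with Poisson counts and the same effective length in both libraries of a comparison. That setting leaves out length differences between libraries and variation beyond counting error, so it does not cover them. Python 3.11.15, numpy 2.4.6, pandas 2.3.3, scipy 1.17.1, matplotlib 3.10.9 and R 4.3.3 were used.

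All 10 genes were named throughout. From each list, genes past 2-fold, or otherwise up to 4 with the largest ratios, could be named, and for Trp53, Cdkn1a, Mdm2 and Cdkn2a the 3 nearest profiles among 7613 genes of at least 5 FPKM. The 10 genes and the lists were chosen with earlier results of these data known. Genes named below the filter (Trp63, Trp73, Pmaip1, Cdkn1c and the markers at 0 counts), Gadd45b and genes overlapping a named gene fall outside this rule and were picked after their values were seen. An item counted in the lists is not reported here by name.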

Additional observations from a re-analysis of the deposited data

Results flagged for a closer look

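For 6 of the 10 genes the knockdown label went with opposite directions in normal culture and in OGD, each beyond counting error. With 1 library per group none of these differences was tested. The share of all genes with opposite directions was not counted, so the 6 is not read as a result about these genes. The differences of log2 ratios, OGD minus normal, were 2.384 for Cdkn1b (from -0.81 to 1.57) and 1.622 for Mdm2 (from -0.80 to 0.82). They were -1.177 for Cdkn2a (from 0.53 to -0.64), -1.024 for Cdkn2d (from 0.77 to -0.26), -0.8481 for Phlda3 (from 0.42 to -0.43) and -0.351 for Trp53 (from 0.12 to -0.23). The median over all genes moved the same way as Cdkn1b and Mdm2, from -0.27 to 0.26, so these 2 genes ran with most genes and the other 4 against them. Trp53 and Cdkn2d kept neither direction pair under rescaling to equal library sums, where Trp53 stood at -0.20 and 0.07 and Cdkn2d at 0.44 and 0.02. Phlda3 kept its directions under that rescaling, at 0.09 and -0.13.

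OGD over normal culture also ran in opposite directions under the 2 viruses for Cdkn1a and Cdkn1b, likewise untested and not counted over all genes. Cdkn1a moved by 0.6737, from -0.22 with the control virus to 0.45 with the knockdown-labelled one. Its value with the control virus was above 0 with TMM (0.14), with median of ratios and after removal of the length trend (0.15). With the knockdown-labelled virus its value was as low as 0.02 with median of ratios and as high as 0.96 with equal sums. Cdkn1b moved by 2.384, from -0.83 to 1.56, and kept both directions in all alternatives.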

How the results depend on the processing

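All alternatives were planned. No paired analysis was possible because each group held 1 library, and no library could be left out for the same reason. All 11 of the 40 log2 ratios of the 10 genes that were past 2-fold kept their direction in the 6 alternatives that alter a ratio, and 9 stayed past 2-fold in all 6. The exceptions were Gadd45a with the knockdown label in normal culture (-1.36 to -0.73) and Cdkn1b in OGD with the knockdown-labelled virus (0.83 after removal of the length trend). Of the 29 within 2-fold, 9 turned sign in at least 1 alternative. Members higher with the label in normal culture numbered 1 rather than 0 with TMM and with median of ratios, and members lower there 0 rather than 1 under both and 3 after rescaling to equal sums. In OGD 4 rather than 1 were higher after rescaling to equal sums.

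Rescaling moved the median of all genes by up to 0.44 on the log2 scale, and the counts over all genes moved with it. With the label in normal culture 572 genes were higher, and 187 with equal sums, 974 with TMM and 1036 with median of ratios. Lower were 1701, and 3035, 943 and 882 under those settings and 752 without the length trend. In OGD 1990 were higher, and 3163, 1184 and 1094 under the same 3 scalings, 1235 at a filter of 5 FPKM and 876 without the length trend. Lower were 279, and 102, 569 and 663 under the 3 scalings, 155 in unscaled CPM and 462 with a pseudocount of 0.1. For OGD over normal with the knockdown-labelled virus 4092 were higher, and 2661 at a filter of 5 FPKM and 2631 without the length trend, while 2556 were lower, and 1476 with equal sums. With the control virus no count moved by more than 1.5 times. The counts over the gene lists were not repeated under the alternatives. The causes were not tested. Depth limits Mdm2, Ccng1, Cdkn2d and Cdkn1b most, with 183, 257, 284 and 311 counts in their thinnest library, and no setting replaces the missing replicates.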

Other observations

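Transcript shares were also computed from deposited mean lengths for the other genes with a pair of annotated transcripts, under the same assumptions as for Cdkn2a. The longer Ccng1 transcript made up 90.2% in the control normal library, 78.3% in the labelled-knockdown normal, 90.7% in the control OGD and 91.1% in the labelled-knockdown OGD library. For Phlda3 the shares in that order were 83.3%, 79.6%, 75.4% and 84.9%, and for Cdkn2c 41.8%, 41.9%, 34.4% and 42.5%. The lowest share was in the labelled-knockdown normal library for Ccng1 and in the control OGD library for Phlda3 and Cdkn2c, and there is no error for these shares.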
